A study of Mus musculus with 6 samples.

Results

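The cytosolic ribosomal protein genes of the mouse were followed in heads of embryos at embryonic day 8.5. The set held 84 protein-coding genes out of 54532 genes in the files. A gene was taken when its symbol was Rpl or Rps followed by a digit, Rplp0 to Rplp2 or Rpsa. Its counts had to sum to at least 60 over all pools. The Rps6k kinase genes were left out. So were all genes named Rps3a, both Rps3a1, which encodes a protein of the small subunit, and its copies. Total RNA was sequenced from 3 wild-type pools and 3 pools of Sf3b4 neural crest cell mutants, each made from the heads of 3 embryos. Sf3b4 encodes a subunit of the SF3B complex, which takes part in recognition of the branch site during splicing. The genotype entries and the design text give the mutant pools as a neural crest deletion, whereas their titles read homozygous null, and the neural crest reading is used here. No source used here gives the Cre driver, the strain or the litters, so p-values measure the spread between these pools.

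Each ribosome joins a small subunit, which reads the mRNA, to a large subunit, which forms peptide bonds. Ribosomal proteins coat and stabilise the ribosomal RNA of both, and their mRNAs are among the most abundant of growing cells. Their mRNAs typically begin with a run of pyrimidines, the TOP motif, through which mTOR signalling and LARP1 control their translation together. When assembly fails, free RPL5 and RPL11 bind MDM2 and p53 is stabilised. In human patients, loss of 1 copy of several of these genes causes Diamond-Blackfan anaemia, in which craniofacial anomalies occur.

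Of the 84 genes, 46 encode core proteins of the large subunit and 30 core proteins of the small subunit. Another 7 met the rule by name: the paralogs Rpl22l1, Rpl7l1, Rpl36al and Rps27rt, the gene copies Rpl36a-ps1 and Rpl9-ps6, and Rps19bp1, which encodes a binding partner of RPS19 and no ribosomal protein. The last, Rps27l, is a known p53 target and was kept apart. Around the threshold, Rpl36a-ps1 had 84 counts and Rpl24 had 97 in all pools together, while Rpl10-ps3 had 29 and Rps12-ps3 had 18 and were left out. The tissue-restricted paralogs Rpl39l (7 counts), Rpl3l (3 counts) and Rpl10l (1 count) were left out as well. All 84 passed the filter on low counts and lay on 20 chromosomes.

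The start windows of 4 genes picked because they hold a pyrimidine run are shown, with that of Rps27l, to let the TOP motif be seen. They run from 15 bases before to 15 bases after a RefSeq transcription start (GRCm38.p6), on the gene's strand. Capitals mark the pyrimidine run CTTTC and its variants, namely CTTTT and the shifted form CCTTT; the runs can overlap each other.
Rps6 (chr4:86857353-86857382, minus strand): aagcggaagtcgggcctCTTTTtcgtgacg
Rpl38 (chr11:114668565-114668594, plus strand): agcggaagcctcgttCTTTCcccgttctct
Rpl15 (chr14:18270972-18271001, minus strand): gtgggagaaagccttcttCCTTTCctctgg
Rps27 (chr3:90213634-90213663, minus strand): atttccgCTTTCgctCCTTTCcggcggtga
Rps27l (chr9:66946071-66946100, plus strand): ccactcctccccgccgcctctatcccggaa
At least 1 of the 3 runs was found near the start of Rps6, Rpl38, Rpl15 and Rps27, and none in the first listed window of Rps27l.

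RefSeq windows were matched by symbol for 62 of the 84 genes. From 50 bases before to 50 after a listed start, 41 of the 62 (66.1%) held at least 1 of the 3 runs on the gene's own strand in at least 1 window. The same was true of 23.7% of 10125 tested genes with a window and of 28.6% of all 27025 genes in the table. CTTTC alone was found on the own strand in 53.2% of the ribosomal protein genes and 12.2% of tested genes, and on the opposite strand in 11.3% and 11.5%. CGGAAG, the core of ETS factor sites, was found on either strand in the whole window of 300 bases in 67.7% of the ribosomal protein genes, 35.1% of tested genes and 18.8% of all genes. TATAAA on the own strand near the start was found in 8.06% of the ribosomal protein genes and 2.15% of tested genes. A match describes the letters only.

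Levels can be compared between genes only per length. In CPM (normalised counts, brought to equal library sizes with TMM factors) divided by the length in kilobases of the principal transcript, the median core gene stood at 1044 CPM per kb. The 3 highest were Rpl41, Rplp1 and Rps12, the first a very short basic peptide of the large subunit, the second part of the stalk that recruits elongation factors. Rpl41 had 2420, 2419 and 2760 CPM per kb in the wild-type pools and 3044, 2992 and 2767 in the mutant pools. Rplp1 had 2543, 2333 and 2615 CPM per kb in wild type and 2903, 2883 and 2925 in the mutants. Rps12, of the small subunit, had 2501, 2337 and 2641 CPM per kb against 2542, 2621 and 2602. Every mutant pool lay above every wild-type pool for Rplp1 and Rpl41, and the groups overlapped for Rps12. These 3 means, 2734, 2700 and 2541 CPM per kb, lie closer together than the pools of Rpl41 lie to each other.

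At the other end, the lowest levels belonged to Rpl24 (2.44 CPM per kb), Rpl36a-ps1 (3.16) and Rpl36al (6.74). Of the 76 core genes, 73 stood above 200 CPM per kb; the exceptions were Rpl24, Rps10 (41.8 CPM per kb) and Rpl13a (92.8). All of these share exonic bases with another annotated gene. Rpl24 shares 47.0% with Gm28037, Rpl13a 35.4% with genes including Gm45713, and Rps10 28.7% with genes including the readthrough transcript RPS10-NUDT3. In all, 16 members share over 10%. Among these are Rpl35 (66.2%, 429 CPM per kb) and Rpl23a (62.3%, 1600 CPM per kb). Both share mostly with genes on the opposite strand (66.2% for Rpl35 and 59.7% for Rpl23a). That part is 0% for Rpl24 and Rpl13a and 8.18% for Rps10. The part of sharing in these levels was not tested. No source used here tells how reads in shared exons were assigned, so the low values of Rpl24, Rps10 and Rpl13a cannot be read as low expression.

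Against the wild-type pools, the ribosomal protein genes were slightly higher in the mutant pools as a set of small differences, and few passed the test alone. Of the 83 genes other than Rps27l, 2 rose (Rpl34 and Rpl23a) and none fell by edgeR's quasi-likelihood test with Benjamini-Hochberg adjustment over all 14008 tested genes at 0.05. Among all tested genes 2.65% were higher (371 genes) and 3.88% lower (543 genes), so the count of 2 is no larger than the background share. At an unadjusted p under 0.05, 37 of the 83 were higher and 0 lower, beside 11.0% of tested genes higher and 12.2% lower. The fitted log2 fold change was above 0 for 81 of 83, against 50.3% of tested genes. In 43 genes all mutant pools lay above all wild-type pools, in none were all below, and in 40 the groups overlapped. Over all tested genes 13.8% had all mutant pools above and 14.4% all below. The median log2 fold change of the 83 was 0.16 (quartiles 0.11 and 0.21, range -0.04 to 0.48), against 0.00 for all tested genes. In bulk heads, more cells rich in these mRNAs and more such RNA per cell cannot be told apart.

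**Figure D1:**
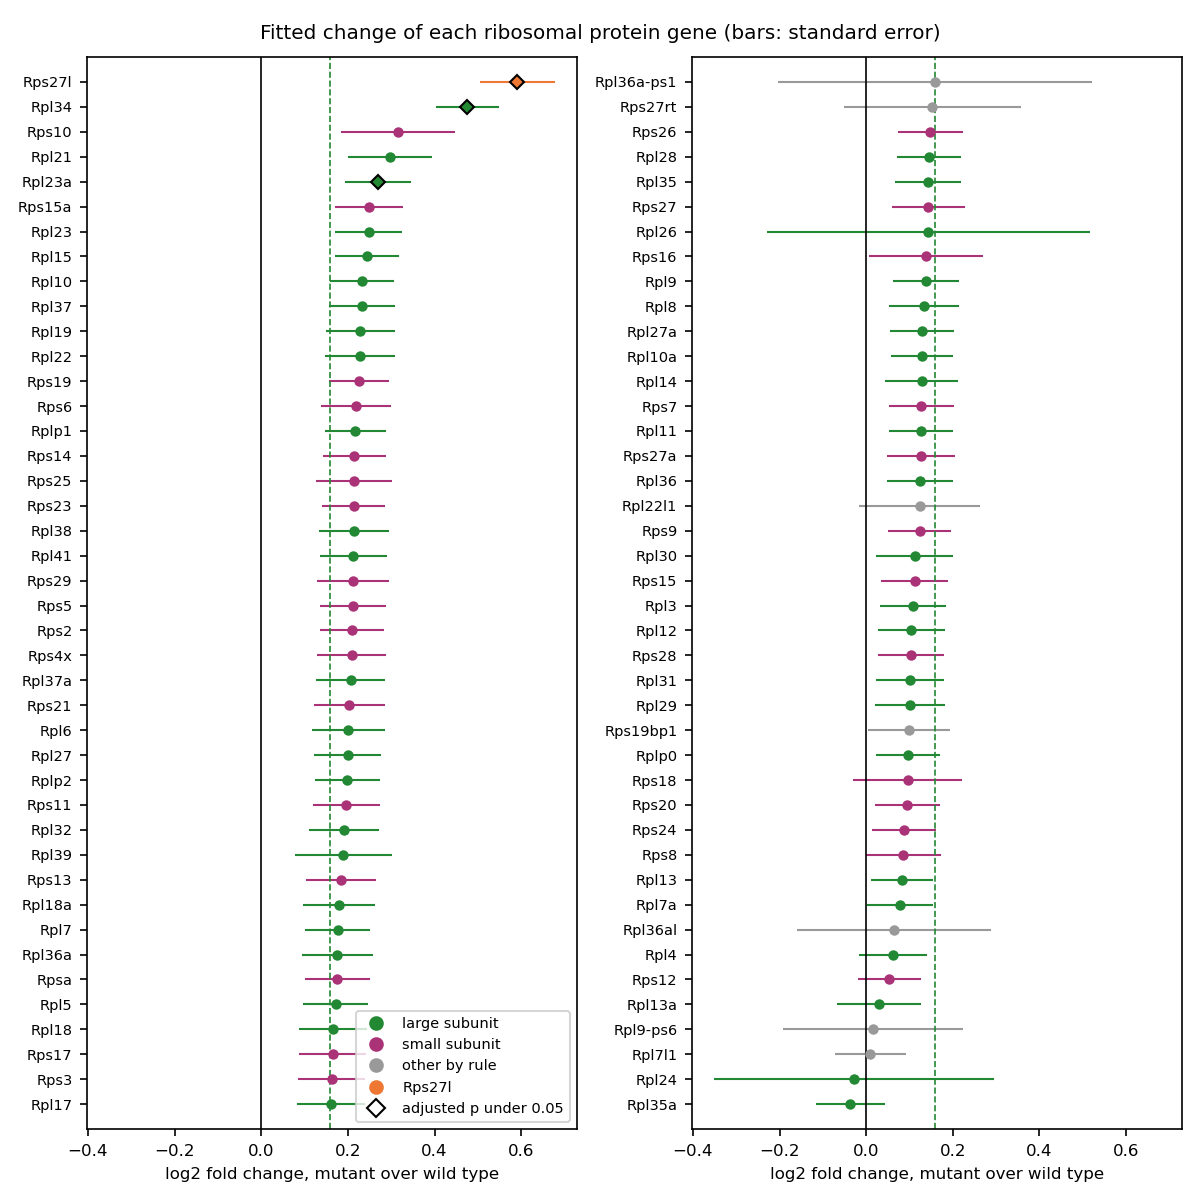
Log2 fold change of mutant over wild type (x axis) of each of the 84 genes (y axis, ordered by value), with its standard error as a bar; colour gives the class, diamonds mark an adjusted p under 0.05 and the dashed line marks the median of 0.16. Only Rps27l, Rpl34 and Rpl23a carry a diamond, and 2 genes, Rpl24 and Rpl35a, lie below 0.

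The count that passed depended on the tool and on the pools: 13 of the 83 were higher with DESeq2 (2.75% of all genes it tested) and 2 with limma-voom (2.16%). By edgeR 1 was higher without wild-type replicate 2 (1.28% of all genes) and 1 without mutant replicate 1 (0.751%), 2 (1.08%) or 3 (1.49%). It was 7 without wild-type replicate 1 (2.88% of all genes) and 32 without wild-type replicate 3 (6.23%), among them Rpl5, Rps27 and Rpl22l1. With Y-linked reads as a covariate 11 were higher (5.40% of all genes), and 1 in the 4 pools holding such reads (1.75%) or without robust estimation (2.24%). Under upper quartile scaling 5 were higher (3.14% of all genes), as without a filter on low counts (2.23%). In none of the settings tried did a gene of the set pass as lower (with DESeq2, 3.37% of all genes did). When trends with exon length and GC content were removed from each pool, 4 passed (4.62% of all genes), the median fell to 0.11, and the calls over all genes changed from 371 higher and 543 lower to 647 higher and 536 lower. With the length and GC content of the principal transcript in their place, 5 passed (5.09% of all genes were higher) and the median was 0.096.

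The pools differed among themselves before the genotypes were compared. The 83 genes took 6.14%, 5.59% and 6.30% of all counts in the wild-type pools and 6.56%, 6.50% and 6.75% in the mutant pools. The groups did not overlap, and the widest 95% Wilson interval, which covers counting error only, ran from 6.74% to 6.77%. The means were 6.01% ± 0.371 and 6.61% ± 0.131 (SD, n = 3 each), a difference of 0.60 percentage points, or 0.39 without wild-type replicate 2. The median deviation of the 83 genes from their own mean over pools, in log2 CPM, was -0.06, -0.20 and 0.03 in the wild-type pools and 0.07, 0.08 and 0.10 in the mutant pools. The mutant pools were nearly alike, while wild-type replicate 2 was low for most genes and replicate 3 came close to the mutants. In wild-type replicate 3, 53 of the 83 genes lay above their own mean, against 12 and 5 in replicates 1 and 2 and 74, 76 and 76 in the mutant pools.

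**Figure D2:**
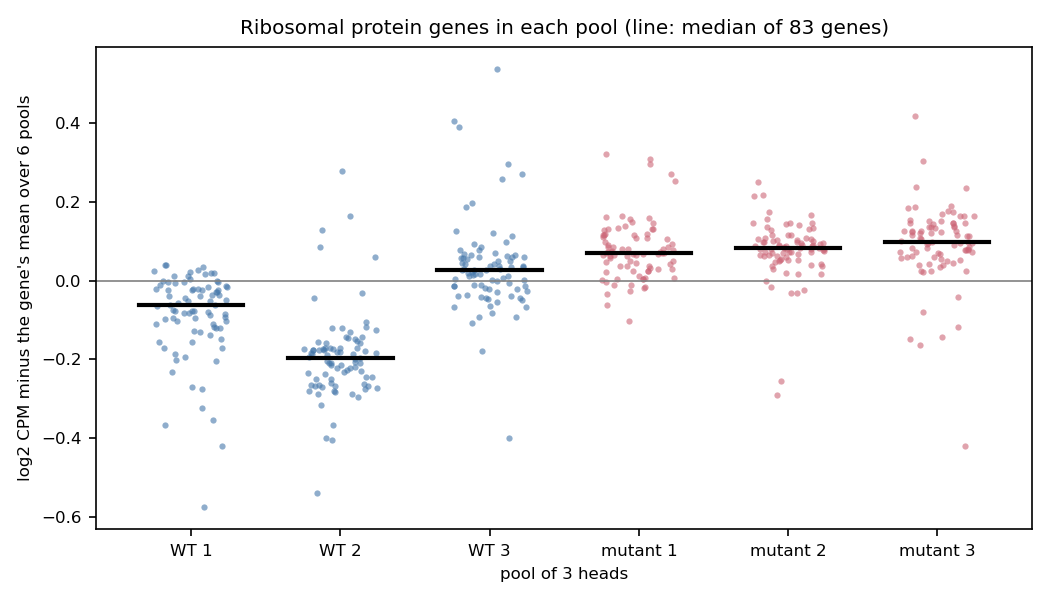
Log2 CPM minus the gene's mean over 6 pools (y axis) for 83 ribosomal protein genes in each pool of 3 heads (x axis); each point is a gene and the black line the median. The wild-type medians spread from -0.20 to 0.03, and the 3 mutant medians lie between 0.07 and 0.10.

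Total counts ran from 6930827 to 12251910 per pool, and wild-type replicate 2 had the fewest. Sf3b4 itself had 77.7, 72.8 and 63.9 CPM in the wild-type pools and 56.1, 64.2 and 60.9 in the mutant pools, with overlapping groups (log2 fold change -0.24, adjusted p = 0.128, edgeR). It passed without wild-type replicate 3 (adjusted p = 0.0288) and with the length and GC correction (0.0459), and the adjusted p was 0.441 without mutant replicate 1, all by edgeR. Some markers of other cell types differed with genotype, and in bulk RNA this is a level, not a share of cells. Markers are counted as higher or lower by edgeR, where 2.65% of all tested genes were higher and 3.88% lower. The summed level of 10 neural crest markers was 432 to 473 CPM in wild type and 316 to 356 in the mutants (5 of 10 lower), that of 9 surface ectoderm markers 460 to 500 and 562 to 617 (1 higher), and that of 8 head mesoderm markers 145 to 169 and 192 to 209 (3 of 7 tested higher). Of 8 endothelial markers 1 was higher (244 to 272 and 292 to 305 CPM). Among 10 neural tube markers 3 were lower, but 6 estimates were above 0, with a median log2 fold change of 0.01. Their sums overlapped between the genotypes (617 to 657 and 573 to 619 CPM). Of 13 erythroid markers only Hba-a2 was at 0, and their sum overlapped between the genotypes (110 to 274 and 83.8 to 185 CPM). The sums of 9 heart markers (33.6 to 106 and 49.2 to 59.7 CPM) and of 8 extraembryonic endoderm markers (6.67 to 8.19 and 5.66 to 10.4 CPM) overlapped too. Y-linked reads were nearly absent from wild-type replicate 1 and mutant replicate 3, with 1 count each. Among the 4 other pools, the median of the 83 genes was 0.15. The part of these marker differences in the ribosomal protein result was not tested.

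The subunits are given side by side, and their difference was not tested. Of the 46 core genes of the large subunit, 2 rose, 0 fell and 44 did not pass, with a median log2 fold change of 0.16, and in 26 all mutant pools lay above all wild-type pools. Of the 30 core genes of the small subunit, 0 passed in either direction, with a median of 0.17 and 16 genes whose pools did not overlap. Over all tested genes 2.65% rose and 3.88% fell by edgeR, and 13.8% had all mutant pools above all wild-type pools. The small-subunit count of 0 by edgeR stands beside 16 genes at an unadjusted p under 0.05 and 5 that passed by DESeq2, all higher. The shares over all genes were 11.0% higher at that p and 2.75% higher by DESeq2. Rps3a1, also of the small subunit, was left out by the rule and is not in this count. It had 899, 799 and 930 CPM in wild type and 1381, 1383 and 1424 in the mutants (log2 fold change 0.67, adjusted p = 7.55e-05, edgeR). The 7 genes outside the core had a median of 0.10; 0 passed by edgeR or DESeq2 and 0 reached an unadjusted p under 0.05.

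Rpl34, which encodes a small protein of the large subunit, rose by the largest amount of the 83. On chromosome 3 (GRCm38, chr3:130726831-130730398, minus strand, ENSMUSG00000062006), it had 195, 195 and 207 CPM in the wild-type pools and 290, 263 and 277 in the mutant pools. All mutant pools lay far above all wild-type pools, and the spread within each genotype was narrow. The log2 fold change was 0.48 (SE 0.0724, adjusted p = 0.00114, edgeR), a fold of 1.39. It passed in every alternative tried, with log2 fold changes from 0.41 to 0.52. Rpl34 lies 34.5 Mb from Sf3b4 on the same chromosome. Of the other 2 members on chromosome 3, Rps27, which lies 5.96 Mb from Sf3b4, had a log2 fold change of 0.14 and Rpl22l1, at 67.4 Mb, one of 0.12, and neither passed by edgeR.

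Rpl23a, whose protein sits at the exit of the peptide tunnel, had 840, 736 and 860 CPM in wild type and 967, 974 and 997 in the mutants (chr11:78180932-78183584, minus strand). The log2 fold change was 0.27 (SE 0.0759, adjusted p = 0.0451, edgeR), and the pools did not overlap. The call was lost without mutant replicate 1 (log2 fold change 0.28, adjusted p = 0.175), 2 (0.28, 0.119) or 3 (0.26, 0.143), where the estimate stayed about as large, and without wild-type replicate 2 (0.21, 0.115), all by edgeR. It was also lost in the 4 pools holding Y-linked reads (0.28, adjusted p = 0.112), without robust estimation (0.27, 0.0551), with the replicate block (0.27, 0.0695) and after the length and GC correction by all exons (0.19, 0.0687) or by the principal transcript (0.19, 0.0521), again by edgeR. Of its exonic bases, 59.7% lie opposite other genes, among them Tlcd1. Tlcd1 had only 7.88, 8.05 and 10.3 CPM in wild type and 7.39, 7.79 and 7.45 in the mutants. No source used here tells how reads over both genes were assigned.

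The estimates of Rps10 and Rpl21 were larger than that of Rpl23a, and that of Rps15a was the next below it. None of Rps10, Rpl21 and Rps15a passed by edgeR in the fit of all pools. Rps10, of the small subunit, had 18.1, 22.5 and 15.6 CPM in wild type and 24.8, 22.7 and 21.1 in the mutants (log2 fold change 0.32, SE 0.131, adjusted p = 0.161, edgeR). One wild-type pool of Rps10 lay above a mutant pool when the gene was counted without its copies. Rpl21, of the large subunit, had 535, 422 and 520 CPM against 597, 550 and 670 (0.30, SE 0.0973, adjusted p = 0.0864, edgeR). Rps15a, of the small subunit, had 583, 583 and 686 CPM against 749, 710 and 741 (0.25, SE 0.0788, adjusted p = 0.0727, edgeR). The pools of Rpl21 and Rps15a did not overlap. DESeq2 called both (adjusted p = 0.0374 and 0.0288), and by edgeR each passed in 5 further alternatives, for Rpl21 among them without wild-type replicate 1 (0.0372) and for Rps15a without wild-type replicate 3 (0.0082). On the other side only Rpl35a (-0.04, SE 0.0797) and Rpl24 (-0.03, SE 0.323) had estimates below 0. Rpl35a had 250, 287 and 285 CPM in wild type and 251, 264 and 286 in the mutants, ranges that coincide.

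The largest change within the 84 genes was that of Rps27l, the paralog of Rps27 whose human counterpart is induced by p53. It had 102, 101 and 123 CPM in the wild-type pools and 164, 173 and 154 in the mutant pools, so no mutant pool reached down to the highest wild-type pool. Its log2 fold change was 0.59 (SE 0.0864, adjusted p = 0.000797, edgeR), a fold of 1.51, and it passed in every alternative tried (0.47 to 0.69). Rps27 had 468, 457 and 567 CPM in wild type and 556, 555 and 536 in the mutants (0.14, SE 0.0841, adjusted p = 0.324, edgeR). Wild-type replicate 3 of Rps27 stood above all mutant pools. The level of Rps27l relative to Rps27 in CPM rose from 21.8% in wild type to 29.8% in the mutants. The log2 ratios were -2.19, -2.18 and -2.20 in wild type and -1.76, -1.68 and -1.79 in the mutants, a difference of 0.45, and the exact two-sided permutation test gave p = 0.1, the smallest that 3 pools against 3 allow (0.2 after adjustment over 4 pairs).

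The coding sequences of Rps27 and Rps27l are shown because their distance bears on how well reads of the pair can be told apart. They come from GENCODE M21 (GRCm38), and capitals mark the bases that differ.
Rps27 (chr3:90212522-90213651, minus strand): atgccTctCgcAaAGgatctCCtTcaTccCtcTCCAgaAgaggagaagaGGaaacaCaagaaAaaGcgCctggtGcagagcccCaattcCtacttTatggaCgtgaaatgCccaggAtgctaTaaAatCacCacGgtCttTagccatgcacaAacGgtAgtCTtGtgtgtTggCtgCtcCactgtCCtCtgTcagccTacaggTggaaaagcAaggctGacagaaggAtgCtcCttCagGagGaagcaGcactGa
Rps27l (chr9:66946086-66949516, plus strand): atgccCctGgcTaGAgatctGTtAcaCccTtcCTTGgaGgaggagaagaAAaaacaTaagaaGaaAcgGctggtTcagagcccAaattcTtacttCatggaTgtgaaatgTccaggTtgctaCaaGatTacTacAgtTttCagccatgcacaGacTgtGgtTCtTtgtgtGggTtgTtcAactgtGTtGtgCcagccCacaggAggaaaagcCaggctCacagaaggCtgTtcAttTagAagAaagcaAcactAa
Of 255 bases, 61 differ and 76.1% are identical, and the differences are spread along the whole sequence.

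None of the other paralogs passed the test by edgeR, DESeq2 or limma-voom, and none reached an unadjusted p under 0.05. Rpl22l1, the paralog of Rpl22, had 105, 126 and 162 CPM in wild type and 147, 150 and 132 in the mutants (0.12, SE 0.139, adjusted p = 0.646, edgeR), with overlapping pools; without wild-type replicate 3 the estimate was 0.31 and passed. Rpl22 had 458, 412 and 504 CPM against 544, 547 and 519 (0.23, SE 0.0801, adjusted p = 0.103, edgeR), with pools that did not overlap. The log2 ratio of Rpl22l1 to Rpl22 differed by -0.09 (exact two-sided permutation p = 0.6, 0.7 after adjustment over 4 pairs). Rpl7l1, whose product acts in assembly of the large subunit, had 265, 233 and 276 CPM against 248, 253 and 280, with a log2 fold change of 0.01. Rpl7 had 1470, 1342 and 1569 CPM against 1613, 1647 and 1690, all mutant pools higher, but did not pass (0.18, SE 0.0751, adjusted p = 0.173, edgeR). The log2 ratio of Rpl7l1 to Rpl7 fell below that of wild type in every mutant pool, by 0.17 in the mean (-2.47, -2.52 and -2.51 against -2.70, -2.70 and -2.59, exact two-sided permutation p = 0.1, 0.2 after adjustment). Rpl36al had 3.24 to 3.96 CPM in wild type and 3.25 to 4.10 in the mutants, and Rps27rt 6.50 to 12.5 and 8.94 to 11.2, both with overlapping pools. The log2 ratio of Rpl36al to Rpl36a differed by -0.14 (exact two-sided permutation p = 0.7, 0.7 after adjustment). The coding sequences were 71.3% (Rpl22l1 with Rpl22), 59.3% (Rpl7l1 with Rpl7) and 87.9% (Rpl36al with Rpl36a) identical. Rps19bp1 had 28.4 to 28.7 CPM in wild type and 29.3 to 32.5 in the mutants (0.10, SE 0.0943, adjusted p = 0.568, edgeR), and the gene copies Rpl36a-ps1 (0.16, SE 0.363) and Rpl9-ps6 (0.02, SE 0.208) were too low for a precise estimate.

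**Figure D3:**
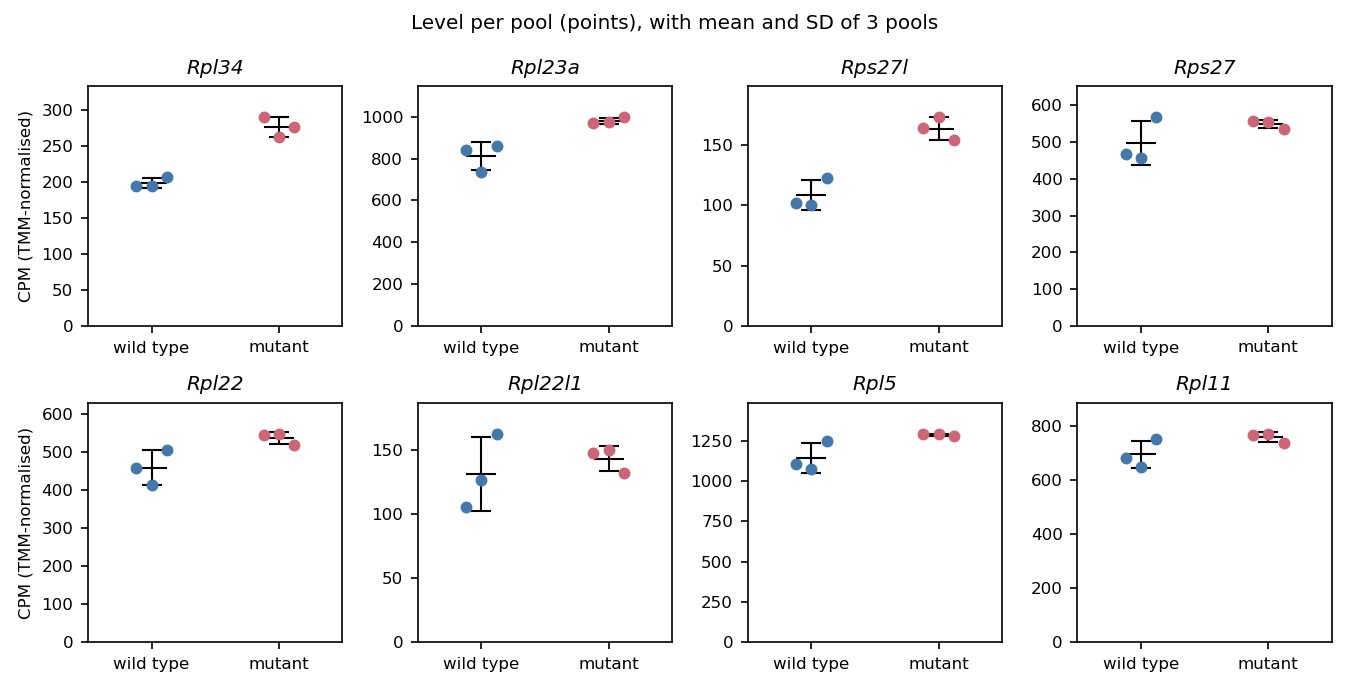
CPM (y axis, from 0) of 8 genes in each pool (points), with the mean and SD of 3 pools per genotype (x axis) in black. The pools of Rpl34, Rpl23a, Rps27l, Rpl22 and Rpl5 do not overlap, and those of Rps27, Rpl22l1 and Rpl11 do.

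The genes through which ribosome assembly is tied to p53 were read as a list of 9. Rpl5 had 1107, 1074 and 1251 CPM in wild type and 1291, 1294 and 1282 in the mutants (0.17, SE 0.0751, adjusted p = 0.183, edgeR). Rpl11, its partner in the 5S particle, had 684, 652 and 753 CPM against 768, 773 and 739 (0.13, SE 0.0745, adjusted p = 0.325, edgeR). The pools of Rpl5 did not overlap, those of Rpl11 did, and neither passed. Of the 9 genes only Mdm2, the p53 ligase and itself a p53 target, rose, with 46.8, 51.6 and 45.6 CPM against 87.9, 87.5 and 73.5 (0.80, SE 0.0919, adjusted p = 8.13e-05, edgeR). At an unadjusted p under 0.05 by edgeR, 2 of the 9 were higher and 0 lower. Over all tested genes 2.65% rose, and at the unadjusted p 11.0% were higher and 12.2% lower. Trp53 mRNA had 149 ± 5.49 CPM in wild type and 160 ± 6.0 in the mutants (SD, n = 3 each), with a log2 fold change of 0.10 that did not pass.

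The 20 members known from Diamond-Blackfan anaemia did not stand out by their values. None passed by edgeR, with 8 higher and 0 lower at an unadjusted p under 0.05, 3 higher by DESeq2, and 19 of 20 estimates above 0. Over all tested genes 2.65% rose and 3.88% fell by edgeR, 11.0% were higher at that p and 50.3% had estimates above 0. By DESeq2 2.75% of the genes it tested were higher. The median of the 20 was 0.15, against 0.18 for the other 56 core genes. The smallest p-values were those of Rpl15 (552, 502 and 575 CPM in wild type, 640, 640 and 650 in the mutants, log2 fold change 0.24) and Rps19, the gene most often affected in patients (701, 661 and 714 against 811, 828 and 789 CPM, 0.23). The genotypes did not overlap for either gene, and their adjusted p-values were 0.0582 and 0.0663 (edgeR). Of the 25 members with small nucleolar RNAs in their introns, 1 (Rpl23a) rose by edgeR. At an unadjusted p under 0.05 by edgeR 11 of the 25 were higher and 0 lower, and 6 were higher by DESeq2. Their median was 0.16, beside 0.17 for the 51 other core genes.

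Reads of ribosomal protein genes can be shared with near-identical copies elsewhere in the genome, most of them processed pseudogenes. Under a threshold of 90% identity over at least 50% of the coding sequence, 311 copies of 77 members were found, 303 of them annotated as pseudogenes. Of the 311, 133 could be tested and 0 passed by edgeR (3 higher and 4 lower at an unadjusted p under 0.05, 2 higher by DESeq2 and 1 lower by limma-voom). Over all tested genes 2.65% rose and 3.88% fell by edgeR, and 11.0% were higher and 12.2% lower at that p. By DESeq2 2.75% of the genes it tested were higher. The copies together held 108338 counts, beside 3731361 on the 84 members. When each member was summed with its copies, 3 of the 83 passed, Rpl15 joining Rpl34 and Rpl23a (2.75% of all genes were higher). The copies of Rpl15 held 31.1 and 55.1 CPM in mutant replicates 1 and 2 and 4.82 to 7.06 in the other pools. With them its log2 fold change went from 0.24 to 0.30.

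The most variable member was Rpl26, whose protein lies near the exit of the peptide tunnel. It had 330, 334 and 640 CPM in the wild-type pools and 493, 361 and 589 in the mutant pools, a pooled SD of 0.46 in log2 CPM where the median member had 0.0965. Its processed pseudogene Gm15772 (chr5:3236431-3236868, plus strand) had 232, 174 and 89.9 CPM in wild type and 221, 307 and 141 in the mutants. Wild-type replicate 3 and mutant replicate 3 were the highest for the gene and the lowest for the copy, in both genotypes. Summed with all its copies, Rpl26 had 563, 509 and 732 CPM against 715, 670 and 731, with a pooled SD of 0.20 and a log2 fold change of 0.23 that did not pass (adjusted p = 0.253, edgeR).

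The coding sequence of Rpl26 and the copy are 438 bases long and differ at 2 of them, C177T and T288C, counted from the first base of the start codon with the base of Rpl26 first. Both sites are shown with 20 bases on either side because only reads over them can tell the gene from its copy within the coding sequence; capitals mark the differing base.
Rpl26, site 177: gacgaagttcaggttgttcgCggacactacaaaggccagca
Gm15772, site 177: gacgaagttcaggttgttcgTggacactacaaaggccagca
Rpl26, site 288: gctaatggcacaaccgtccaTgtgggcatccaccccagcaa
Gm15772, site 288: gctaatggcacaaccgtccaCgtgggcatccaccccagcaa

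Rps2, of the small subunit, had 1118, 1176 and 1297 CPM in wild type and 1393, 1365 and 1394 in the mutants, and its copy Rps2-ps13 had 213, 160 and 120 against 158, 221 and 164. Summed with its copies, its pooled SD fell from 0.0777 to 0.0358, and the sums were 1361, 1369 and 1447 CPM against 1573, 1601 and 1577. Rps18 went from 0.21 to 0.14 in the same way, and Rps10 from 0.20 to 0.064. The sums of Rps10 were 27.1, 29.8 and 26.9 CPM in wild type and 35.1, 33.5 and 34.1 in the mutants, without overlap. Its log2 fold change was then 0.30 and did not pass (adjusted p = 0.0667, edgeR). For some other members the pooled SD rose on summing, for Rpsa from 0.0824 to 0.0965 and for Rplp0 from 0.0795 to 0.0908. Gm8730, a copy of Rplp0, had 6.64 CPM in wild-type replicate 2 and 41.8 to 72.7 in the other pools. Gm10020, a copy of Rpl15, had 15.3 and 28.8 CPM in mutant replicates 1 and 2 and 0.989 to 1.67 in the others.

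**Figure D4:**
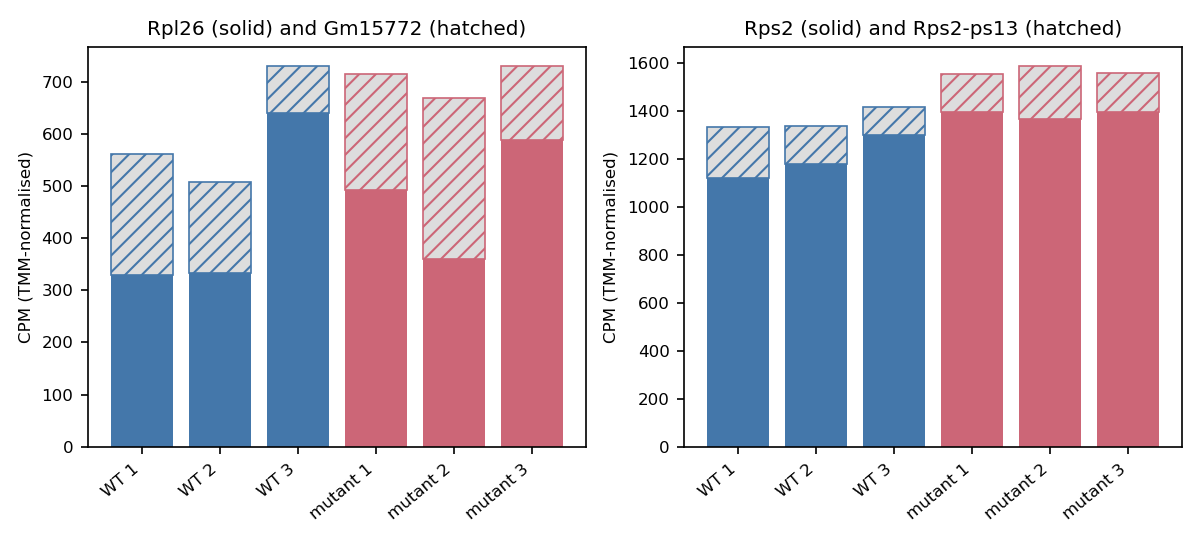
CPM (y axis, from 0) in each pool (x axis) of a gene (solid) stacked with its processed pseudogene (hatched), for Rpl26 with Gm15772 and Rps2 with Rps2-ps13. Rpl26 alone runs from 330 to 640 CPM, and its copy is lowest, at 89.9 CPM, where the gene is highest.

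Other genes of the translation machinery were read as lists. Over all tested genes 2.65% rose and 3.88% fell by edgeR, and 2.75% and 3.37% of those DESeq2 tested. At an unadjusted p under 0.05 by edgeR 11.0% were higher and 12.2% lower, and 50.3% of all estimates were above 0. Of 22 further genes with TOP mRNAs, most of which encode elongation and initiation factors, none passed by edgeR (6 higher and 1 lower at an unadjusted p under 0.05, and 1 higher by DESeq2), with a median log2 fold change of 0.13. The 2 with the smallest p were Pabpc1, which encodes the poly(A) binding protein (975 ± 34.8 CPM in wild type, 828 ± 67.6 in the mutants, log2 fold change -0.24, adjusted p = 0.0795, edgeR), and Btf3, a subunit of the nascent polypeptide complex (431 ± 42.2 and 509 ± 9.54 CPM, 0.24, adjusted p = 0.0868, edgeR). Of 77 tested genes of the mitochondrial ribosome, which is built separately, 2 rose by edgeR and by DESeq2 (by edgeR Mrpl11, 0.39, and Mrpl9, 0.34), 0 fell by either, and 56 estimates were above 0, with a median of 0.09. At an unadjusted p under 0.05 by edgeR, 18 of the 77 were higher and 2 lower.

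Of 74 ribosome assembly factors, 4 rose and 5 fell by edgeR (4 and 3 by DESeq2), with a median of 0.05. Over all tested genes 2.65% rose and 3.88% fell by edgeR, and 2.75% and 3.37% of those DESeq2 tested. At an unadjusted p under 0.05 by edgeR, 11 of the 74 factors were higher and 11 lower. The smallest p-values were those of Mdn1, an AAA ATPase that strips factors from the maturing large subunit, which fell from 692 ± 46.7 to 474 ± 58.3 CPM (log2 fold change -0.54, adjusted p = 0.0024, edgeR), Rrp12 (-0.36), Dhx37 (-0.41) and Rsl24d1, which rose (0.35). None of 17 genes of RNA polymerase I transcription passed by edgeR or DESeq2 (3 higher and 4 lower at an unadjusted p under 0.05, median -0.01). Among them Tcof1, the gene of Treacher Collins syndrome, had 238 ± 14.3 and 202 ± 12.3 CPM (-0.24, adjusted p = 0.0754, edgeR), and Polr1a, the largest subunit, 262 ± 9.07 and 227 ± 5.30 CPM (-0.21, adjusted p = 0.0833, edgeR). Of 24 regulators of ribosomal protein genes none rose and 3 fell: Mtor (-0.33), its partner Rptor (-0.27) and Eif4ebp2 (-0.29), a translation repressor that mTOR inactivates. By DESeq2 2 of the 24 fell and by limma-voom 1, and at an unadjusted p under 0.05 by edgeR 1 was higher and 6 were lower. Values after ± in these lists are SD over 3 pools.

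**Figure D5:**
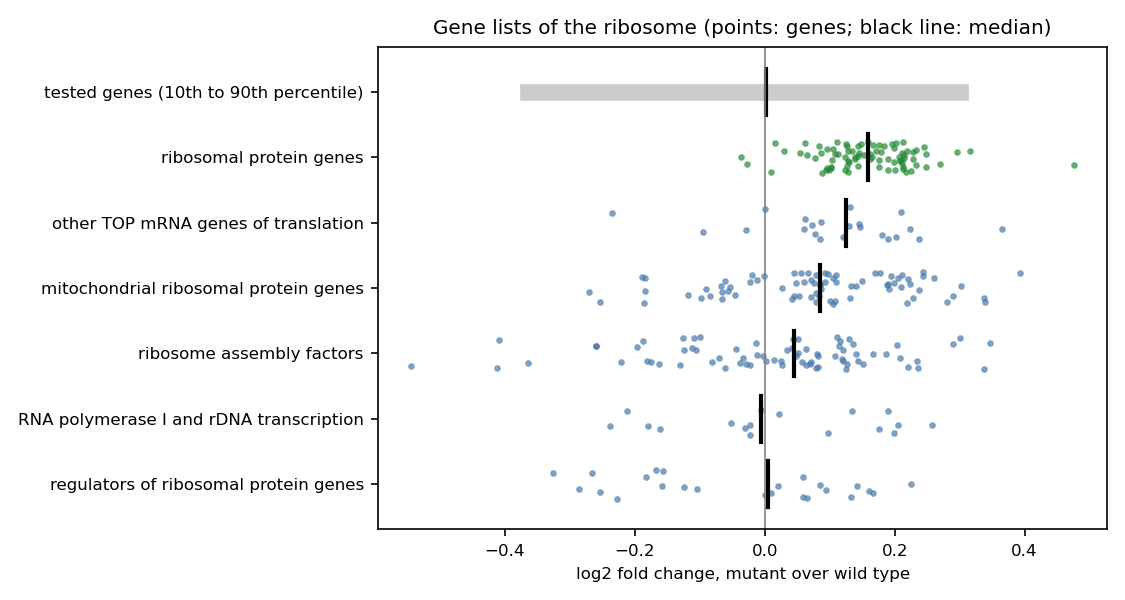
Log2 fold change of mutant over wild type (x axis) for the genes of 6 lists (y axis), each point a gene and each black line the median; the grey bar spans the 10th to 90th percentile of the 14008 tested genes. The median of the ribosomal protein genes is 0.16 and that of the RNA polymerase I genes -0.01.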

How the data were processed

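Total RNA libraries (TruSeq Standard Total RNA kit, RNA from an RNeasy micro kit, per the labels' protocols) were compared in 3 wild-type and 3 mutant pools, grouped by their titles and genotype entries. The authors deposited raw whole-number counts of reads per Ensembl gene, 1 table per pool, not normalized. Per the submitters' processing notes the genome build was mm10. Aligner, counter, annotation and strandedness: not given in the sources used here. Therefore overlapping, antisense and near-identical genes can share reads. Of 54532 gene IDs, 54495 matched GENCODE M21, which gave symbols, positions and transcripts.

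Genes were kept with filterByExpr (14008), scaled by TMM and tested with edgeR's quasi-likelihood test (two-sided, robust, Benjamini-Hochberg over all tested genes, threshold 0.05); the script was tested on simulated counts. Pairs of paralogs were compared as log2 ratios of CPM (pseudocount 0.5) with exact permutation tests. Copies were found with blastn 2.17.0. Principal transcripts are those of the best APPRIS class and, among ties, the shortest, a choice made after levels had been seen. Total counts limit precision for genes with few reads. Replicate pools are distinct libraries, since their counts varied beyond what sampling gives (chi-square over degrees of freedom, 3.01 to 10.2). The members and lists were chosen with earlier results of these data known. Named are Sf3b4, members that passed, the largest estimates in each direction, the paralogs, Rpl5 and Rpl11, the highest and lowest levels per kilobase, genes at the count threshold, and of each other list up to 4 that passed or the 2 with the smallest p; other genes named were chosen after their values were seen. The alternatives were DESeq2, limma-voom, other scalings and filters, no robust estimation, a replicate block, omission of each pool, Y-linked reads as a covariate or the 4 pools with them alone, a length and GC correction, and sums with pseudogenes carrying the member's symbol. Sums with all near-identical copies and a correction by principal transcript were added after seeing the data. Versions were edgeR 4.0.16, DESeq2 1.42.0 and limma 3.58.1 under R 4.3.3, with Python 3.11.15, pandas 2.3.3 and matplotlib 3.10.9.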

Additional observations from a re-analysis of the deposited data

How the results depend on the processing

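The median of the 83 genes ran from 0.096 with the principal transcript correction to 0.22 without wild-type replicate 3 over the alternatives, and Rpl34 and Rps27l passed in each. The number of the 83 that passed, all of them higher, was 2, and became 13 with DESeq2, 11 with the Y-linked covariate, 5 with upper quartile scaling, without a filter on low counts or with the principal transcript correction, 4 with the length and GC correction, and 1 without robust estimation or in the 4 pools holding Y-linked reads. With each pool left out it ran from 1 to 32, and the number over all genes, 914, from 230 to 1810; that number was 1642 with the Y-linked covariate and 535 in the 4 pools. The cause was not tested. The replicate numbers do not pair the pools: same-numbered deviations correlated at -0.16, 0.05 and -0.06, and not every pool correlated best with its own number. With the replicate block 694 genes passed, 2 of the 83 among them (Rpl34 and Rpl21), the median was 0.17, and Rpl23a lost its call. With each pool left out in turn, some estimates near 0 changed sign: Rpl35a ran from -0.097 to 0.0084, Rpl24 from -0.16 to 0.11, Rpl7l1 from -0.049 to 0.061, Rpl22l1 from -0.015 to 0.31, Rpl36al from -0.033 to 0.15, Rps27rt from -0.0045 to 0.47, Rpl36a-ps1 from -0.068 to 0.49, Rpl26 from -0.026 to 0.54 and the log2 ratio of Rpl22l1 to Rpl22 from -0.24 to 0.0038. Of these only Rpl22l1 passed, without wild-type replicate 3. In the 4 pools holding Y-linked reads, Rpl7l1 stood at -0.029, Rpl36a-ps1 at -0.11 and Rpl26 at -0.19. After the length and GC correction Rpl7l1 stood at -0.013, Rpl36al at -0.0019 and Rps12 at -0.036, and by principal transcript at -0.051, -0.0034 and -0.017, with Rpl22l1 at -0.025. Rpl7l1 stood at -0.013 with library size alone, and Rpl24 at 0.070 when summed with its copies. Low counts limit Rpl24, Rpl36al, Rpl36a-ps1 and Rps27rt, whose standard errors exceed their estimates.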
